A study of Mus musculus with 2 samples.

Results

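The MCM helicase and replication licensing genes were examined in E14 cells, a line of mouse embryonic stem cells (mESCs) whose mouse of origin the label spells 19/Ola, after knockdown of the deubiquitinase USP21. The 10 genes were chosen by symbol for their role and not by their values, though earlier results of these data were known. All 10 were found among the 23889 symbols of the processed files. They were Mcm2, Mcm3, Mcm4, Mcm5, Mcm6, Mcm7, Mcm10, Cdc6, Cdt1 and Gmnn. One library came from cells transfected with a control shRNA (genotype label Normal) and 1 from cells transfected with a USP21 shRNA (genotype label USP21 knockdown). Both cultures were kept without feeder cells on gelatin with 1000 U per ml LIF and serum, and both were harvested 3 days after knockdown. The labels do not say which USP21 shRNA was used or what share of the cells took it up. The question addressed is how the transcripts of the licensing system differ between mESCs with and without USP21 depletion. With 1 library per group, no difference given here has a replicate check, and no p-value was computed.

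A cell licenses its replication origins before S phase. The origin recognition complex recruits Cdc6 and Cdt1, which load the hexameric MCM2-7 helicase onto DNA as an inactive double ring. Mcm10 acts later, when the loaded helicase is activated, and geminin (Gmnn) binds Cdt1 and blocks a further round of loading. Mouse embryonic stem cells have a short G1 phase and are known for high levels of licensing factors, and E2F factors are classical activators of these genes.

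The values are FPKM (fragments scaled to transcript length and to the mapped fragments of the library), so that levels of different genes can be compared within a library. In each pair of values below the control shRNA library comes first and the USP21 shRNA library second. Usp21 itself was at an FPKM of 26.2 and 3.49, in the direction of the labels. The defining markers of mESCs were present in both libraries, with Pou5f1, the gene of Oct4, at 868 and 752. The 10 mESC markers summed to 4622 and 3552, and 9 of the 10 were lower with the USP21 shRNA (7 of 10 when both libraries are rescaled to the same sum, TPM), where 49.6% of all genes were lower on the deposited scale and 29.3% with TPM. Of the 10, 2 were at least 1.5-fold lower on both scales, where 6.46% and 3.97% of all genes were. They were Nanog, at 467 and 258 (log2 ratio -0.86), and Tfcp2l1, at 59.0 and 30.2 (-0.97, the lowest of the 10). The highest was Utf1, at 289 and 305 (0.079). The part of the mESC markers in the values of the licensing genes was not tested. Of the 8 fibroblast or feeder markers only Thy1, which other cells also express, reached an FPKM of 1, at 17.3 and 5.29. Lum was listed at 0 in both libraries, and Col1a1 was at 0.801 and 0.560. Markers of primitive endoderm summed to 27.1 and 27.6, of mesoderm to 2.83 and 2.53, of neural cells to 46.3 and 31.2 and of trophectoderm to 34.9 and 24.4. Within these lists the markers past the filter (FPKM of 1 or more in either library) differed in both directions. Their log2 ratios ran from -1.20 (Sox7) to 0.75 (Pdgfra) in primitive endoderm and from -0.70 (Mixl1) to 0.20 (Eomes) in mesoderm. They ran from -0.91 (Tubb3) to 0.48 (Nes) in neural cells and from -0.65 (Krt8) to 1.42 (Hand1) in trophectoderm. Mixl1, at an FPKM of 1.06 and 0.613, passed the filter only through the control shRNA library. Hand1, at 0.403 with the control shRNA, passed it only through the USP21 shRNA library, where it was also close to the limit. The ratios of Mixl1 and Hand1 thus rest on low values and are uncertain. Steps of single fragments among 1439 low genes gave a ratio of depth of 1.24 (control shRNA over USP21 shRNA), while the absolute depth is unknown.

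The 6 subunits of the helicase were among the most abundant transcripts of these cells and were nearly level between the libraries. In bulk RNA, fewer cells that express a gene and less of its RNA per cell cannot be told apart. Mcm7 was the highest, at an FPKM of 241.3 and 243.9. Mcm5 was at 210.2 and 189.8. Mcm3 was at 201.5 and 205.2. Of these, Mcm7 forms with Mcm4 and Mcm6 a subcomplex that has helicase activity of its own, while Mcm3 pairs with Mcm5. Mcm6 was at 200.8 and 199.7. Mcm2 was at 186.1 and 182.5. Mcm4 was the lowest subunit, at 128.0 and 117.6. In the control library, 5 of the 6 subunits stood within the top 3.92% of the 11927 genes that passed the filter (FPKM of 1 or more in either library), and Mcm4 stood at 5.97%.

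The subunits occur once each in the hexamer, and their transcripts were close to each other except for Mcm4. The highest subunit was 1.89 times the lowest with the control shRNA and 2.07 times under knockdown. Without Mcm4 these ratios were 1.30 and 1.34. The share of Mcm4 in the summed FPKM of the 6 subunits was 10.96% and 10.3%. The sum itself was 1168 and 1139. The coefficient of variation across the 6 subunits was 19.3% and 21.8%, so that the spread among subunits was of like size in both libraries. Mcm7 was the first and Mcm2 the fifth of the 10 genes in both libraries, while Mcm5 was the second with the control shRNA and the fourth with the USP21 shRNA, behind Mcm3 and Mcm6. Mcm3, Mcm5 and Mcm6 lay within a few percent of each other in the control library, and without replicates it is not known whether their order differs beyond the spread.

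Of the genes that load, activate or restrain the helicase, Cdc6, Cdt1 and Mcm10 were lower than every subunit in both libraries, and Gmnn lay beside Mcm4. Gmnn, the inhibitor of Cdt1, stood at an FPKM of 129.3 and 100.7. Cdt1, which delivers MCM2-7 to the origin, was at 88.5 and 89.7. Mcm10, which helps the helicase to start unwinding, was at 40.8 and 42.3. Cdc6, the ATPase that loads the helicase together with Cdt1, was at 35.3 and 33.8 and was the lowest of the 10 genes in both libraries. The median of the MCM2-7 subunits was 5.70 and 5.76 times Cdc6. Against Cdt1 the factor was 2.27 and 2.17, and against Mcm10 it was 4.93 and 4.599. The ratio of the inhibitor to its target differed more between the libraries. Gmnn was 1.46 times Cdt1 with the control shRNA and 1.12 times under knockdown, while the USP21 shRNA to control ratio of Cdt1 itself was 1.01. The difference thus lay in Gmnn, and 16.0% of the 500 genes nearest to it in mean level had a log2 ratio lower still.

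**Figure D1:**
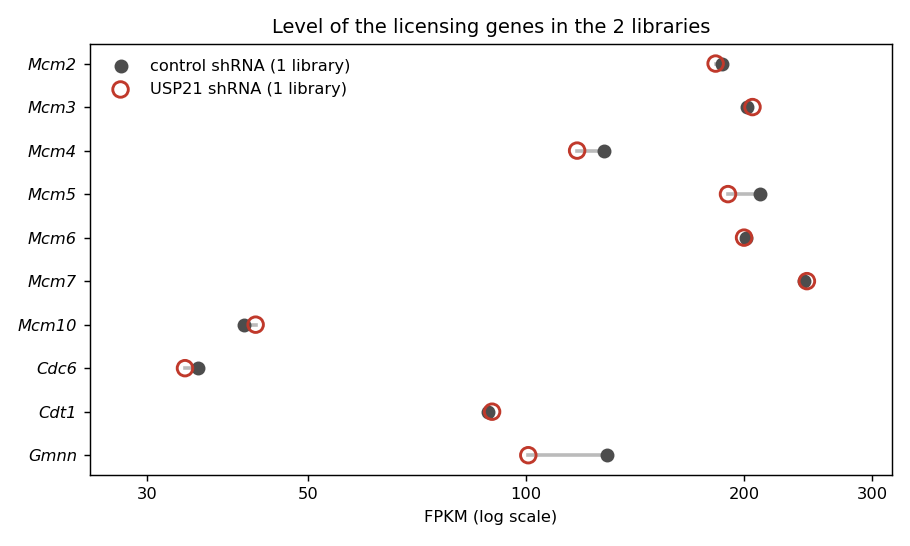
FPKM (log axis) of the 10 licensing genes, with a filled grey point for the control shRNA library and an open red circle for the USP21 shRNA library, 1 library each and no error bars. The points overlap or nearly touch in 7 genes and are apart in Mcm4, Mcm5 and Gmnn, over a range from 35.3 and 33.8 for Cdc6 to 241.3 and 243.9 for Mcm7. The widest gap is that of Gmnn, at 129.3 and 100.7.

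The measure of difference was log2((FPKM USP21 shRNA + 0.1)/(FPKM control shRNA + 0.1)), so that a negative value is a lower level with the USP21 shRNA. Across the 10 genes it ran from -0.36 to 0.053, with a median of -0.018, against a median of 0.0031 over the 11927 genes. None of the 10 was at least 1.5-fold lower, where 6.46% of all genes were, and none was at least 1.5-fold higher, where 7.77% were. At a narrower limit, 1 of the 10 (Gmnn) was at 0.8 times its control level or less, as were 16.9% of all genes, and none had a control level of 0.8 times the USP21 shRNA level or less, as 19.0% of all genes had. The other 9 of 10 lay between these limits, against 64.2% of all genes. Of the 10, 6 were lower by any amount on the deposited scale, against 49.6% of all genes and 62.1% of genes in the same range of mean level. With upper quartile scaling 5 were lower, against 46.3% of all genes. With TPM, which raised the median of all genes to 0.18, 1 was lower, against 29.3% of all genes. Rescaled to TPM the median of the 10 genes was 0.16, so that relative to all genes they were close to the middle. The median size of the log2 ratio without its sign was 0.041 in the 10 genes and 0.23 over all genes. Over the 2346 genes in the same range of mean level this median was 0.17, and 77.7% lay between the narrower limits. The contrast in size depended on the scaling. With TPM the median size was 0.18 in the 10 genes and 0.27 over all genes, and with upper quartile scaling 0.050 and 0.23.

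Among the helicase subunits the log2 ratio was 0.026 for Mcm3, 0.015 for Mcm7, -0.0079 for Mcm6 and -0.028 for Mcm2. The largest departure among these 4 was that of Mcm2, with a USP21 shRNA to control ratio of 0.981. Mcm4 and Mcm5 were lower, with log2 ratios of -0.12 and -0.15, though with TPM they were at 0.053 and 0.028. The 500 genes nearest to each in mean level had medians of -0.12 and -0.15, so these subunits sat at the middle of genes like them in level. Mcm3, Mcm6, Mcm7 and Mcm2 sat above the middle of such genes, with 70.0% to 79.4% of the 500 below them. The log2 ratio was 0.053 for Mcm10, 0.021 for Cdt1 and -0.061 for Cdc6, with 41.6% to 72.0% of the genes of like level below them. The lowest log2 ratio was that of Gmnn, at -0.36, a ratio of 0.779. Of the 500 genes of like level 16.0% were lower still, and their range from the 5th to the 95th percentile was -0.52 to 0.30, so that Gmnn lay inside the spread of genes of like level.

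**Figure D2:**
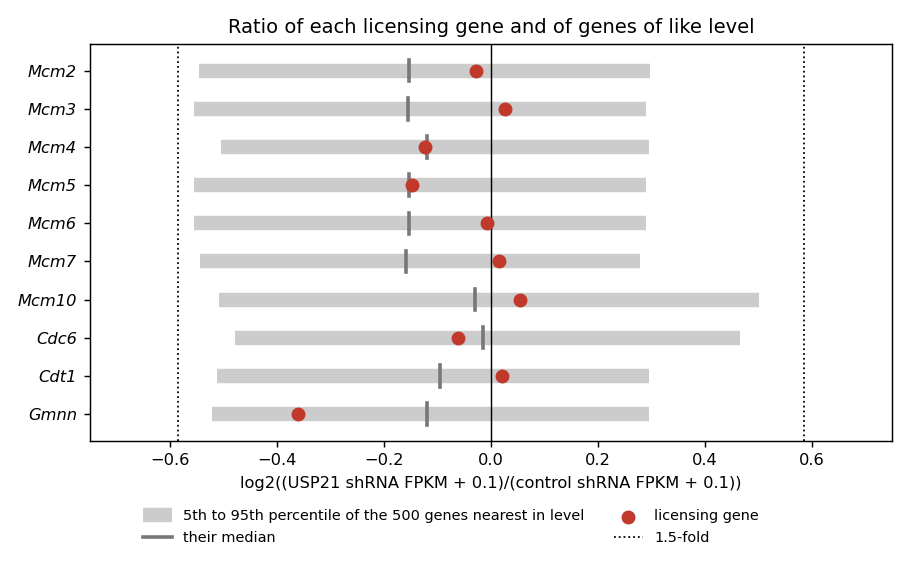
Log2 ratio of each licensing gene (red points, USP21 shRNA over control shRNA, 1 library each), with the 5th to 95th percentile (grey bars) and the median (dark ticks) of the 500 genes nearest to it in mean level and dotted lines at 1.5-fold. Every red point lies within its grey bar, and Gmnn, at -0.36, lies farthest from 0.

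The log2 ratio also followed transcript length over the whole transcriptome. Across the 11378 genes with a transcript in GENCODE M21 (95.4% of those past the filter) Spearman's rho was 0.32, as a description across genes that share both libraries. Among the licensing genes Gmnn, whose transcript of 1127 bases is the shortest of the 10, had the lowest ratio and Mcm10, whose transcript of 4867 bases is the longest, had the highest. Genes of the length of Gmnn had a median log2 ratio of -0.14 and those of the length of Mcm10 one of 0.085. With these medians subtracted, Gmnn was at -0.22, which is above the limit of 0.8 times the control, Mcm10 at -0.032, Mcm5 at -0.18 and Mcm4 at -0.15. The other 6 genes then ran from -0.049 for Mcm2 to 0.078 for Cdt1. The part of transcript length in the value of Gmnn was not tested.

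**Figure D3:**
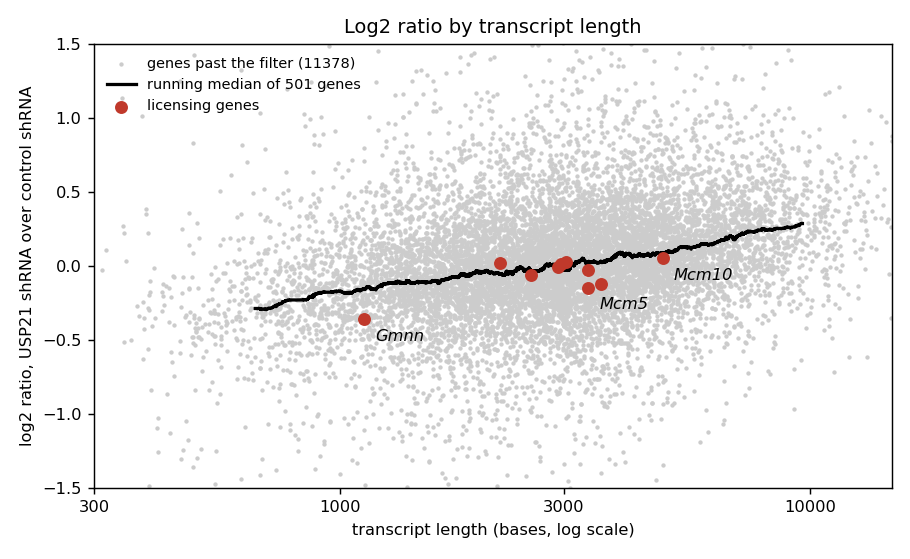
Log2 ratio (USP21 shRNA over control shRNA) against transcript length in bases (log axis) for 11378 genes (grey), with the running median of 501 genes (black line) and the 10 licensing genes (red). The black line climbs with length, most licensing genes lie close to it, and Gmnn, Mcm4 and Mcm5 lie below it. Genes with a log2 ratio beyond 1.5 in either direction are outside the panel.

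Several of the licensing genes have in common a sequence feature that played no part in their choice. RefSeq promoters (GRCm38.p6, 250 bases before to 50 bases after the annotated start) were matched by symbol for 8 of the 10 genes, with 2 starts for Mcm7. Mcm4 and Gmnn were not matched. These windows were searched on both strands for the E2F letters TTTCCCGC, TTTGGCGC, TTTGCCGC and TTTCGCGC. Of the 8 genes, 6 held at least one of them, namely Mcm3, Mcm5, Mcm6, Mcm7, Cdc6 and Cdt1, while the windows of Mcm2 and Mcm10 held none. Counted by promoter, 6 of the 9 held such letters. They were found in 2.26% of all 32851 RefSeq promoters of this length, and in 4.09% of the 11519 promoters of genes past the filter. In all there were 11 matches in 9 stretches, 7 before and 4 after the start, because matches overlap by a few letters in Mcm5 and Mcm6. TTTGCCGC was in no promoter of the 8 genes and in 0.441% of all. The stretches are shown because 6 of the 8 genes with a promoter entry hold such letters. The matched letters are in capitals, which read as the reverse complement where the match lies on the opposite strand, and each stretch is written 5′ to 3′ on the strand of its gene.
Mcm3, chr1:20820275-20820304, minus strand, bases 20 to 27 after the start: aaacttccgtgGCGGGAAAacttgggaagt
Mcm3, chr1:20820263-20820285, minus strand, bases 39 to 46 after the start: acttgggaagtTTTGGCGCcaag
Mcm5, chr8:75109347-75109376, plus strand, bases -153 to -142: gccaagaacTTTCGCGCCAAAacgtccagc
Mcm6, chr1:128359795-128359824, minus strand, bases -110 to -99: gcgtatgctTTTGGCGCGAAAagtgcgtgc
Mcm6, chr1:128359734-128359763, minus strand, bases -47 to -40: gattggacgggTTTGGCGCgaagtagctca
Mcm7, chr5:138172030-138172059, minus strand, bases -165 to -158: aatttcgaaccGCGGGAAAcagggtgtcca
Mcm7, chr5:138171849-138171878, minus strand, bases 17 to 24 after the start: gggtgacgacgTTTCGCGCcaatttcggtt
Cdc6, chr11:98908002-98908031, plus strand, bases -138 to -131: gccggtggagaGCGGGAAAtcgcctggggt
Cdt1, chr8:122568036-122568064, plus strand, bases 33 to 40 after the start: ggaactaccttTTTGGCGCcatggcgcaa

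In Mcm5 and Mcm6 the capitals join a TTTCGCGC and a TTTGGCGC match, 1 on each strand, which share 4 central letters. CCAAT was found in the promoters of 6 of the 8 genes (7 of 9 promoters), with 37.4% of all promoters holding it. The GC box GGGCGG was in 6 of 8 genes (7 of 9 promoters), against 35.7% of all promoters and 64.4% of those of expressed genes. The cell cycle homology letters TTTGAA were found in Mcm2 alone, against 17.9% of all promoters. The promoters had a median GC content of 57.3%, against 52.7% over all promoters and 61.3% over those of genes past the filter. A match of letters is a description and shows no binding, and no factor was measured here.

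**Figure D4:**
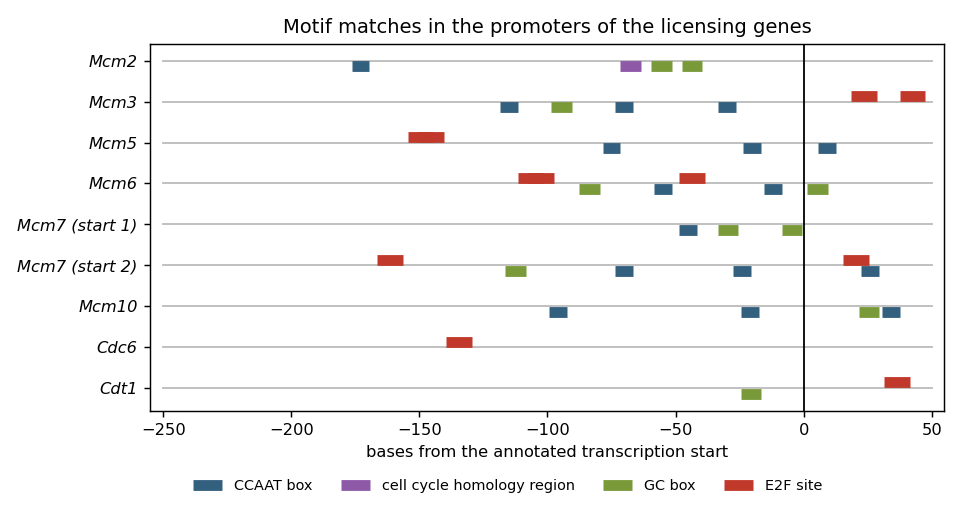
Position of motif matches (coloured blocks) in the 9 RefSeq promoters of 8 licensing genes, in bases from the annotated start (black line), with E2F letters in red above each line and the other motifs below it. E2F letters appear in 6 genes, from 165 bases before the start in Mcm7 to 46 bases after it in Mcm3, and those of Mcm2 and Mcm10 hold CCAAT and GC boxes but no red block.

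Genes with and without E2F letters had medians near 0. The 449 genes past the filter with such a promoter had a median log2 ratio of -0.011, and the 8551 genes with a promoter and no such letters had 0.0090. The 6 licensing genes among the former had a median of 0.0036 and ranged from -0.15 for Mcm5 to 0.026 for Mcm3. The E2F factors themselves and their partners had a median of 0.057 over 13 genes. E2f6, a repressor of the family, was the highest, at an FPKM of 12.1 and 18.1 and a log2 ratio of 0.58, just under 1.5-fold on the deposited scale and past it with TPM or upper quartile scaling. E2f2 was the lowest, at 5.96 and 4.49 and a log2 ratio of -0.40. E2f1, an activator, was at 23.1 and 29.3, and Rb1, which restrains the activators, was at 5.91 and 8.15. The related Rbl1 and Rbl2 were lower, at 8.02 and 6.51 and at 1.65 and 1.45. Of the 13 genes, 6 were lower and 7 higher on the deposited scale.

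The transcripts of factors that act just before and after the licensing step were read for the same comparison. All 6 subunits of the origin recognition complex were lower with the USP21 shRNA on the deposited scale (5 of 6 with TPM). Of all genes 49.6% and 29.3% were lower on these scales. None of the 6 was at least 1.5-fold lower, where 6.46% of all genes were on the deposited scale. The lowest log2 ratio was that of Orc4, at -0.42 and an FPKM of 17.0 and 12.7, while Orc1 was at 27.6 and 24.6. Over the 9 genes of this list, which also holds the MCM relatives Mcm8, Mcm9 and Mcmbp, the median was -0.19, and 7 of 9 were lower (6 of 9 with TPM). Mcmbp, which binds MCM complexes, was the highest, with a log2 ratio of 0.079.

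Genes of helicase activation and of the fork had a median of -0.0033 over 15 genes. None was at least 1.5-fold lower or higher, where 6.46% and 7.77% of all genes were. Cdc45, which with GINS completes the active helicase, was at an FPKM of 52.6 and 52.4. The GINS subunit Gins4 had the highest log2 ratio, at 0.35 and an FPKM of 40.3 and 51.5, whereas Gins1 was at 62.6 and 55.4. Tipin, a component of the fork protection complex, had the lowest, at -0.53 and an FPKM of 132.9 and 92.0.

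Among the 11 genes of Cdt1 and geminin turnover, 1 was at least 1.5-fold higher, where 7.77% of all genes were. None was at least 1.5-fold lower, where 6.46% of all genes were. Skp2, the F-box protein that brings Cdt1 and other cell cycle proteins to the SCF ubiquitin ligase, was at an FPKM of 11.5 and 28.8, a log2 ratio of 1.32 (1.49 with TPM). None of its 31-base words occurs in another annotated gene, and with genes of like length subtracted it was at 1.31. Of the other subunits of that ligase Skp1a was at 269.1 and 201.6 (-0.42, the lowest of the list) and Cul1 was at 45.1 and 52.1. Of the CRL4 ligase, which degrades Cdt1 in S phase, the receptor Dtl was at 49.8 and 56.1 and the adaptor Ddb1 at 273.8 and 276.8. Pcna, the clamp on which that degradation takes place, was at 494.5 and 400.8. The median of the list was -0.0011. Protein levels were not measured, so these values say nothing of the amount of Cdt1 or geminin protein.

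The remaining lists served as comparison for S phase and mitosis. The 23 genes of the polymerases and clamp had a median of -0.13, with 16 of 23 lower (10 of 23 with TPM), against 49.6% of all genes (29.3% with TPM) and 62.1% of the 2346 genes in the level range of the licensing genes on the deposited scale. Of the 23, 1 was at least 1.5-fold lower, where 6.46% of all genes were, and none was 1.5-fold higher (7.77% of all genes). This 1 was Rfc4 of the clamp loader, at an FPKM of 66.7 and 43.4 and a log2 ratio of -0.62. With TPM it was at -0.44 and not past 1.5-fold, and 12.49% of its 31-base words also occur in Eif4a2. The highest was Pole, the catalytic subunit of polymerase epsilon, at 0.34. With genes of like length subtracted Pole was at 0.14, and Pole4 was the highest at 0.43. The 20 other G1/S transcripts had a median of -0.043, with Ccne2 (cyclin E2) the lowest at an FPKM of 6.86 and 3.996 and a log2 ratio of -0.77, and Rrm2 (a subunit of ribonucleotide reductase) the highest at 110.0 and 172.9 and a log2 ratio of 0.65. Of the words of Ccne2 18.6% also occur in Ints8, and of those of Rrm2 16.5% in other genes. The 20 G2/M transcripts had a median of -0.18, with 16 of 20 lower (10 of 20 with TPM), to be read against the same shares. The lowest was Cdk1, the kinase of mitotic entry, at 83.3 and 52.0 with a log2 ratio of -0.68 (-0.51 with TPM, not past 1.5-fold). The highest was Cenpe, a kinetochore motor, at 0.19, and at -0.051 with genes of like length subtracted. In each of these lists the lowest gene was lower than Gmnn and the highest was higher than Mcm10. These lists hold 20 or 23 genes against 10 licensing genes, and extremes widen with the number of genes. The number between the narrower limits was 9 of 10 licensing genes, 6 of 9 origin recognition genes and MCM relatives, 12 of 15 activation genes, 8 of 11 turnover genes, 20 of 23 polymerase and clamp genes, 8 of 13 E2F and pocket protein genes, 15 of 20 other G1/S genes and 15 of 20 G2/M genes. Over all genes this share was 64.2%, and over the 2346 genes in the level range of the licensing genes it was 77.7%. With 1 library per group the difference between lists was not tested.

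**Figure D5:**
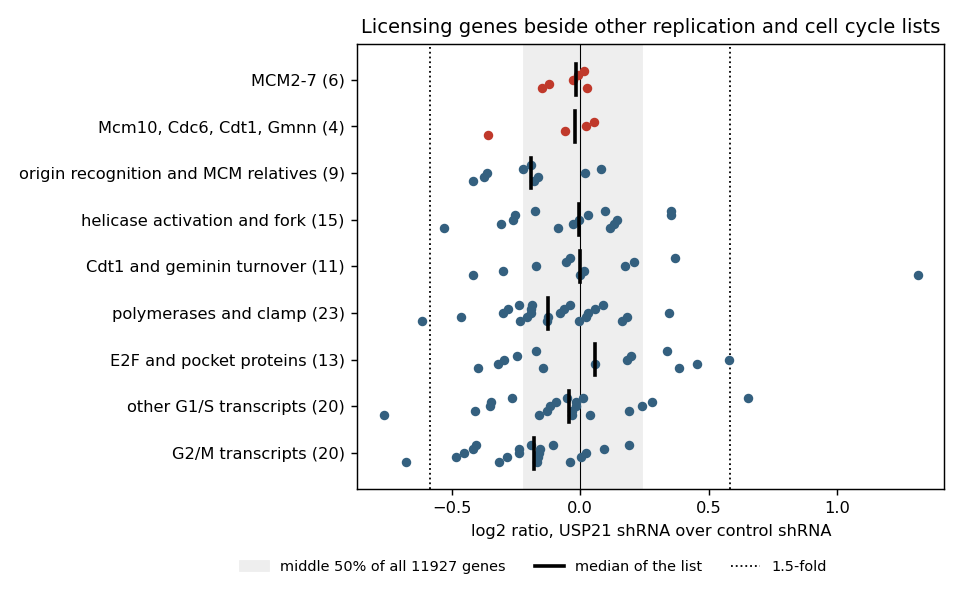
Log2 ratio (USP21 shRNA over control shRNA) of every gene past the filter in each list, with the licensing genes in red, the other lists in blue, list medians as black bars, the number of genes in brackets, the middle 50% of all 11927 genes shaded and 1.5-fold dotted. The red points other than Gmnn fall within the shaded band, and the point far to the right is Skp2, at 1.32.

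Some of the values rest on transcripts that reads cannot place for certain. Of the 31-base words of the Mcm7 transcript 47.6% also occur in other annotated genes, 37.6% in Gm5487 alone, and its exons overlap Ap4m1 and Cops6 on the opposite strand over 321 and 64 bases. The strand setting of the counting is not given in the sources used here. For Cdc6 the share was 18.2%, all with Gm9430, for Gmnn 6.47% and for Mcm4 5.34%. It was 2.19% for Mcm6, 2.09% for Mcm5 and 0.724% for Mcm10, and none of the words of Mcm2, Mcm3 and Cdt1 occurs in another gene. Gm5487 and Gm9430 are not among the deposited gene symbols. How shared reads were divided is not stated, so the level of Mcm7 is the least certain of the 10. The log2 ratio was 0.015 for Mcm7, beside 0.026 for Mcm3, 0.021 for Cdt1 and -0.028 for Mcm2, which are free of sharing. Whether shared reads altered the value of Mcm7 was not tested.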

How the data were processed

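The authors deposited 1 table per library with an FPKM value per gene symbol. Per the labels, the submitters' processing notes name CASAVA 1.8.2, TopHat2 2.0.14, Cufflinks 2.2.1 and the mm9 build. The annotation and options are not given in the sources used here, and the paper's methods leave out this experiment. Log2 ratios were computed from the deposited values after adding a pseudocount of 0.1, and the 11927 genes with an FPKM of 1 or more in either library passed the filter. Each group is 1 library, so counts past 1.5-fold are given beside the share of all genes, without a test. Transcript length and 31-base words came from GENCODE M21 (1 transcript per gene, the longest coding sequence), promoters from RefSeq (GRCm38.p6), both matched by symbol, and the FPKM come from another build. All members were named. Of other lists, the extremes and those past 1.5-fold were named, and a few more by role after their values were seen. Members and lists were chosen with earlier results of these data known. Alternatives were pseudocounts of 1 and 0.01, rescaling (TPM, median, upper quartile), correction for length or level, filters (none, FPKM of 5) and folds. Scripts were tested on simulated data with known changes. Python 3.11.15, numpy 2.4.6, pandas 2.3.3 and matplotlib 3.10.9 were used.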

Additional observations from a re-analysis of the deposited data

How the results depend on the processing

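No paired analysis was possible because each group is 1 library. Values were taken as unchanged within 0.1 on the log2 scale or, for counts, within 1.5 times. No setting brought a licensing gene past 1.5-fold, and Gmnn had the lowest log2 ratio of the 10 in each setting tried. Rescaling to equal sums (TPM) moves every gene up by about 0.18: the median of all genes went from 0.0031 to 0.18, that of the 10 genes to 0.16, and 1 of 10 (Gmnn, at -0.18) was then lower by any amount, so the sign of 5 genes depends on the scaling. It also moved the share of lower genes among all those past 1.5-fold from 45.4% to 22.0%. Subtracting the median of the 500 genes of like level, an alternative chosen after seeing the data, gave a median of 0.10 and 3 of 10 lower. At the limit of 0.8 times the control 1 gene (Gmnn) was lower, and with TPM, like length or like level none was. With a pseudocount of 1 the genes past 1.5-fold numbered 512 lower and 607 higher, against 771 and 927, and with TPM 474 and 1681. Without a filter they were 1514 and 1738, and with a filter at FPKM 5 408 and 496. Of 90 values of single genes, 18 moved by 0.1 or more, 17 of them with TPM or like level and 1, Gmnn, with like length. Both pseudocounts, both filters, the median and the upper quartile left the median of the 10 genes within these limits, and a pseudocount of 1, the one alternative run for them, did so for the highest over the lowest subunit and for Gmnn over Cdt1. Without counts no interval or detection limit could be computed.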
